A study of Schizosaccharomyces pombe
Saccharomyces cerevisiae with 8 samples.

Results

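ARO10 (YDR380W), ARO9 (YHR137W), ARO80 (YDR421W) and BAT2 (YJR148W) of budding yeast, Saccharomyces cerevisiae, are described here across 8 RNA libraries made with and without auxin-induced removal of the general transcription factor Sua7. They are 4 of the 6808 genes listed in the deposited tables. The 4 were picked by identifier for their shared part in amino acid breakdown, and with measured values of these data in view: ARO10 was already known to have one of the largest declines in newly made RNA. Their change in newly made RNA is therefore given as a description, with no test. Total RNA was tested, but it came from the same kind of cultures and the choice was made with its results known too, so it is not independent support.

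In the Ehrlich pathway, yeast strips the amino group from an amino acid, decarboxylates the resulting 2-oxo acid, and reduces or oxidises the aldehyde to a fusel alcohol or acid. ARO9 encodes aromatic aminotransferase II, which acts at the first step, and BAT2 encodes the cytosolic branched-chain aminotransferase, which acts at the same step on leucine, isoleucine and valine. ARO10 encodes a decarboxylase of phenylpyruvate and related 2-oxo acids, which acts at the second step. ARO80 encodes a zinc cluster activator that binds upstream of ARO9 and ARO10 and switches them on when aromatic amino acids are present. Transcription of such catabolic genes is also governed by GATA factors under nitrogen catabolite repression, which lowers the use of poor nitrogen sources when good ones are at hand. By the description in the deposited tables, BAT2 acts on branched-chain and not aromatic amino acids, so the name aromatic breakdown genes holds for ARO9, ARO10 and ARO80. No sequences are shown, since no S. cerevisiae sequence was used here.

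All 8 libraries came from strain GZY364, a MATalpha strain in which SUA7 carries a 3V5-IAA7 degron tag and the plant receptor OsTIR1 is made from the GPD1 promoter. The strain also carries ade2, his3, leu2, lys2, met15, trp1 and ura3 mutations, shared by treated and control cells. Cells in rich YPD medium at midlog phase received 500 µM auxin (indole-3-acetic acid) or the carrier DMSO for 30 min, then 5 mM 4-thiouracil for 6 min, a base analog that enters nascent RNA. Both total RNA and the purified labelled RNA, nsRNA for newly synthesised RNA, were sequenced, with 2 replicates in each of the 4 groups. The labels call the replicates biological without saying what separated them, so a p-value here reflects the spread among these libraries, which may be technical.

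Auxin is itself an indole acid that the pathway can make from tryptophan, and no strain lacking the degron was given auxin among these libraries. An effect of auxin, an effect of Sua7 loss, and for bulk RNA fewer cells or less RNA per cell, cannot be told apart. Total counts were 9496247 and 11779971 for nsRNA with DMSO against 1291241 and 1753672 after auxin, and between 7010247 and 10543351 for total RNA. SUA7 nsRNA itself had 2466 and 2687 scaled counts with DMSO and 189 and 226 after auxin, although the degron acts on the protein, which was not measured. The median gene kept 5.93% of its DMSO level in nsRNA, so a fall of this kind was not particular to SUA7. The alpha mating type of the strain was visible in every library. MF(ALPHA)1 and STE3 had between 183 and 7576 raw counts, and the genes of the other mating type, BAR1 and STE2, had between 8 and 96.

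Changes are given as log2 of auxin over DMSO on the deposited scaling, in which each raw count is divided by 1 factor per library. The typical gene was far lower after auxin on this scaling, so each value is set beside the median gene. The median log2 change was -4.08 over 5800 genes tested in nsRNA, which leaves 5.93% of the DMSO level, and -2.34 over 5479 genes in total RNA, which leaves 19.8%. By edgeR's quasi-likelihood test at an adjusted p under 0.05, 97.6% of genes tested were lower and 1.31% higher in nsRNA, and 90.3% were lower and 1.44% higher in total RNA. Both auxin libraries lay below both DMSO libraries at 97.8% of genes in nsRNA and at 93.9% in total RNA. The 4 genes followed that same downward direction in both kinds of RNA, so a low value after auxin is the background here, and what varied among them was how far each went.

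ARO10 (chromosome IV, 1234218 to 1236125 in sacCer3) was the lowest of the 4 after auxin in both kinds of RNA. In nsRNA it had 1042 and 1455 scaled counts in the DMSO libraries against 14.6 and 19.3 in the auxin libraries. The groups were far apart, with a log2 change of -6.19 (-6.59 to -5.71 over the 4 pairs of libraries), and 1.37% of the DMSO level was left. Among 5800 genes tested, 26 had a lower value. The auxin values rest on few reads, 21 and 28 raw counts, whose exact 95% Poisson intervals run from 13.0 to 32.1 and from 18.6 to 40.5 and cover counting error only.

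In total RNA ARO10 had 386 and 514 scaled counts with DMSO, and 21.7 and 35.4 after auxin. These groups did not overlap either, and the transcript fell by 3.98 on the log2 scale (SE 0.30, edgeR adjusted p = 4.30e-38), leaving 6.32%. Relative to the median gene that is -1.65, and 3.14% of the genes tested had a lower value. The auxin libraries held 25 and 37 raw counts, with intervals of 16.2 to 36.9 and 26.1 to 51.0.

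ARO9 (chromosome VIII, 375709 to 377250) stood near ARO10 in nsRNA but near the typical gene in total RNA. Its nsRNA values were 1653 and 2237 scaled counts with DMSO and 22.2 and 47.7 after auxin. The auxin libraries differed from each other more than the DMSO libraries did on a log scale, and both were far below them. The log2 change was -5.79 (-6.62 to -5.10 over library pairs), which leaves 1.80%, and 43 of the 5800 genes had a lower value.

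Its total RNA values were 520 and 620 with DMSO and 82.5 and 91.9 after auxin. ARO9 fell by 2.71 on the log2 scale (SE 0.27, edgeR adjusted p = 1.83e-23), which leaves 15.3%, and 35.8% of the genes tested had a lower value. A dubious reading frame, YHR137C-A, lies wholly within ARO9 and had at most 3 raw counts in any library. Whether the authors' counting used strand was not stated in the sources used here.

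ARO80 (chromosome IV, 1312040 to 1314892), the activator gene, lay closer to the typical gene in nsRNA than ARO9 and ARO10, its targets. It had 2109 and 2610 scaled counts with DMSO and 69.4 and 122 after auxin there, again with no overlap. The log2 change was -4.63 (-5.22 to -4.11), which leaves 4.05%, and 15.9% of genes tested were lower. In total RNA the values were 644 and 688 with DMSO and 87.7 and 84.3 after auxin, so replicates lay close together in both treatments. ARO80 fell by 2.95 on the log2 scale (SE 0.27, edgeR adjusted p = 6.47e-27), leaving 12.9%, with 26.0% of genes lower.

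BAT2 (chromosome X, 705744 to 706874) was the most abundant of the 4 and kept the largest share of its total RNA. Its nsRNA values were 3976 and 4677 scaled counts with DMSO and 166 and 247 after auxin. The log2 change of -4.39 (-4.81 to -4.00) leaves 4.78%, and 28.3% of genes were lower, so in nsRNA BAT2 lay close to the typical gene. In total RNA it had 4488 and 5755 with DMSO and 2167 and 2796 after auxin, still without overlap.

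BAT2 in total RNA fell by 1.05 on the log2 scale (SE 0.25, edgeR adjusted p = 3.61e-05), which leaves 48.4%. Of the genes tested, 83.0% had a lower value, and BAT2 lay 1.29 above the median gene. The direction of this change rests on the deposited factors: with TMM scaling, which sets the median of all genes tested at -0.11, BAT2 was higher after auxin by 1.18 (edgeR adjusted p = 5.47e-11). ARO10, ARO80 and ARO9 were lower in total RNA on that scaling too, at -1.76, -0.72 and -0.48.

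**Figure D1:**
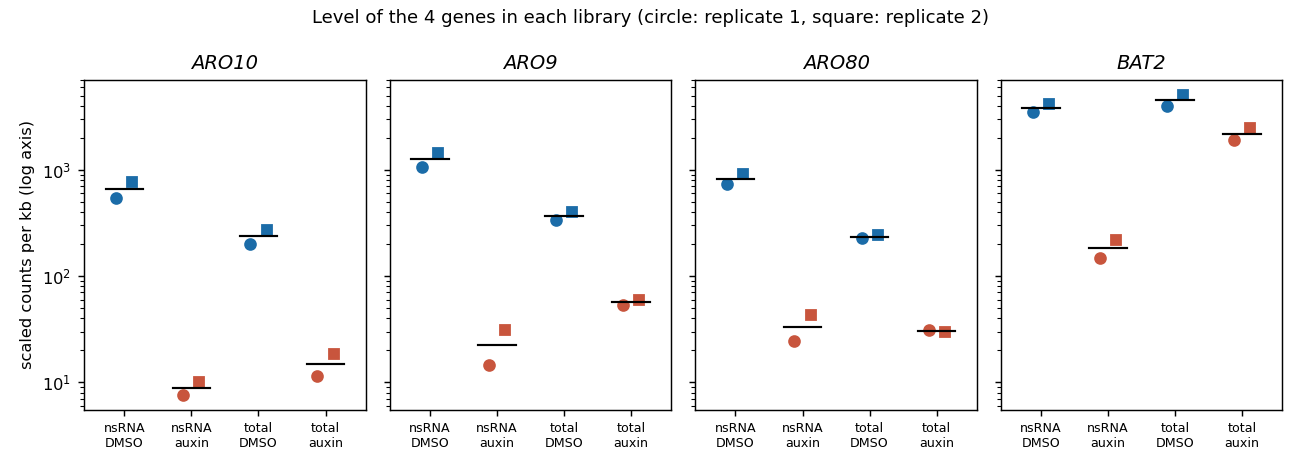
Deposited scaled count per kb of each of the 4 genes in every library (y axis, log scale), by RNA kind and treatment (x axis), with DMSO in blue, auxin in red, circles for replicate 1, squares for replicate 2 and a bar for the mean. The auxin libraries lie below the DMSO libraries for every one of the 4 genes in both kinds of RNA, and BAT2 in total RNA has the smallest gap, from 4488 and 5755 to 2167 and 2796 scaled counts.

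The authors' deposited table gives log2 changes of -6.14 for ARO10, -5.74 for ARO9, -4.59 for ARO80 and -4.36 for BAT2 in nsRNA. For total RNA the authors' deposited table gives -3.92, -2.68, -2.93 and -1.04 in the same order of genes.

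**Figure D2:**
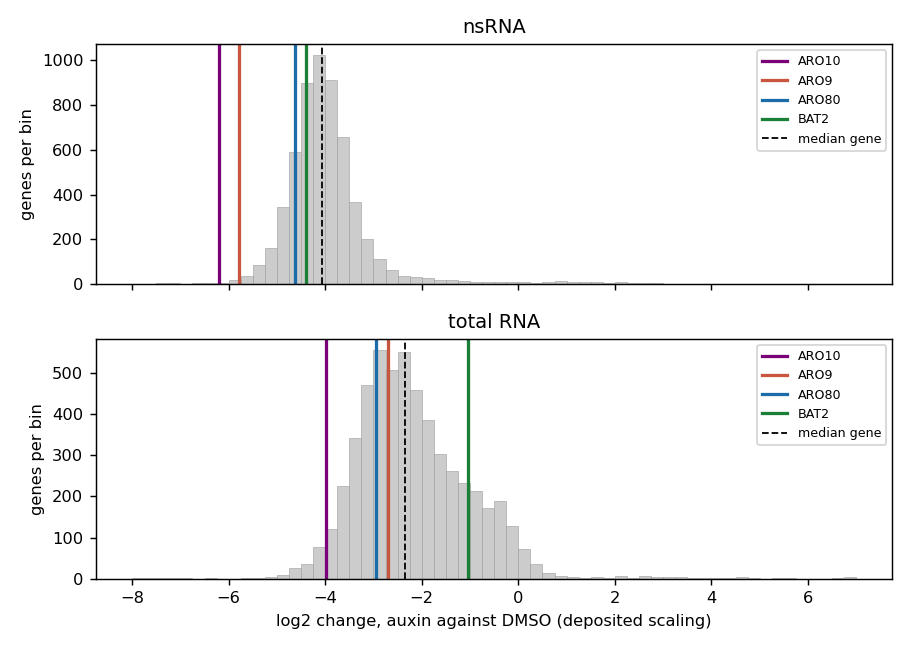
Number of genes tested (y axis) by log2 change of auxin against DMSO on the deposited scaling (x axis, bins of 0.25), for nsRNA above and total RNA below, with the 4 genes as coloured lines and the median gene as a dashed line. ARO10 and ARO9 stand in the lower tail of nsRNA at -6.19 and -5.79, while in total RNA only ARO10 does, at -3.98, and BAT2 lies on the upper side of the median at -1.05.

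The order of the 4 levels per kb of gene length differed between treatments. In nsRNA from DMSO cells, BAT2 had 3516 and 4136 scaled counts per kb, above 91.7% and 92.0% of listed genes. Below it came ARO9 with 1072 and 1451, ARO80 with 739 and 915, and ARO10 with 546 and 763. The last pair of genes overlapped. After auxin, BAT2 was still highest in nsRNA at 147 and 219 per kb. ARO80 had 24.3 and 42.6 and ARO9 had 14.4 and 30.9 per kb, which overlap, and ARO10 was lowest at 7.63 and 10.1.

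In total RNA from DMSO cells, BAT2 had 3968 and 5088 scaled counts per kb. ARO9 had 337 and 402 per kb, and ARO10 (202 and 270) and ARO80 (226 and 241) could not be ordered. After auxin the order in total RNA was BAT2 (1916 and 2472 per kb), ARO9 (53.5 and 59.6), ARO80 (30.7 and 29.5) and ARO10 (11.4 and 18.6), with no overlap between neighbours. The decarboxylase transcript thus went from the level of its activator's transcript to below it. ARO10 stood above 47.6% and 50.8% of listed genes with DMSO and above 24.4% and 30.5% after auxin, by level per kb in total RNA.

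Ratios of raw counts between a pair of genes in the same library need no scaling factor. Such ratios were compared for 6 pairs, and an exact two-sided permutation test of 2 against 2 libraries cannot give a p below 0.333, so they are given as values beside the spread of replicates. The ratio of ARO10 to ARO80 in total RNA was 0.599 and 0.748 with DMSO and 0.248 and 0.420 after auxin, a log2 difference of -1.05 against a largest gap between replicates of 0.76. ARO10 to ARO9 in total RNA went from 0.742 and 0.830 to 0.263 and 0.385, a log2 difference of -1.30 with a largest replicate gap of 0.55. Both differences were larger than the replicate gap, and the groups did not overlap (exact p = 0.333 for each).

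In nsRNA the 2 enzymes of the aromatic branch kept closer to each other. The ratio of ARO10 to ARO9 there was 0.630 and 0.651 with DMSO and 0.656 and 0.406 after auxin, so the groups overlapped. ARO9 to ARO80 went the other way in the 2 kinds of RNA. It was 0.784 and 0.857 with DMSO and 0.320 and 0.392 after auxin in nsRNA, but 0.806 and 0.901 with DMSO and 0.941 and 1.09 after auxin in total RNA. The total RNA difference of 0.25 on the log2 scale was close to the largest replicate gap of 0.21.

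BAT2 to ARO80 in total RNA went from 6.96 and 8.37 with DMSO to 24.7 and 33.2 after auxin. The log2 difference of 1.91 was well above the replicate gap of 0.42 (exact p = 0.333). In nsRNA the same ratio was 1.89 and 1.79 with DMSO and 2.39 and 2.03 after auxin, a log2 difference of 0.26 that was near the gap of 0.23.

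ARO9 and BAT2 each have a partner enzyme for the same step. YGL202W encodes aromatic aminotransferase I, whose expression answers to general control of amino acid synthesis, and BAT1 encodes the mitochondrial branched-chain aminotransferase. YGL202W in total RNA had 805 and 940 scaled counts with DMSO and 658 and 820 after auxin. Its change of -0.24 on the log2 scale did not pass the test (SE 0.25, edgeR adjusted p = 0.354), although its nsRNA change was -3.67. With the replicate number as a block in the fit, YGL202W was called lower in total RNA (edgeR adjusted p = 0.00199). The ratio of ARO9 to YGL202W therefore moved widely, from 0.645 and 0.659 with DMSO to 0.125 and 0.112 after auxin in total RNA, and from 0.395 and 0.442 to 0.0775 and 0.108 in nsRNA. The total RNA ratio was 5.49 times higher with DMSO, a log2 difference of -2.46 against a replicate gap of 0.16 (exact p = 0.333).

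BAT1, named in the deposited tables as the paralog of BAT2, differed from it less. The ratio of BAT2 to BAT1 in total RNA was 1.73 and 1.94 with DMSO and 1.38 and 1.48 after auxin, and in nsRNA it was 1.78 and 1.90 against 0.905 and 1.01. Groups did not overlap in either kind, and the log2 difference in total RNA was -0.36 with a replicate gap of 0.16. How the authors' counting treated reads shared by these paralogs was not stated in the sources used here. BAT1 itself fell by 0.69 on the log2 scale in total RNA (SE 0.25, edgeR adjusted p = 0.00782). That call was lost on leaving out any 1 of the 4 libraries, with adjusted p of 0.0582 and 0.167 without DMSO replicates 1 and 2, and 0.200 and 0.0580 without auxin replicates 1 and 2.

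**Figure D3:**
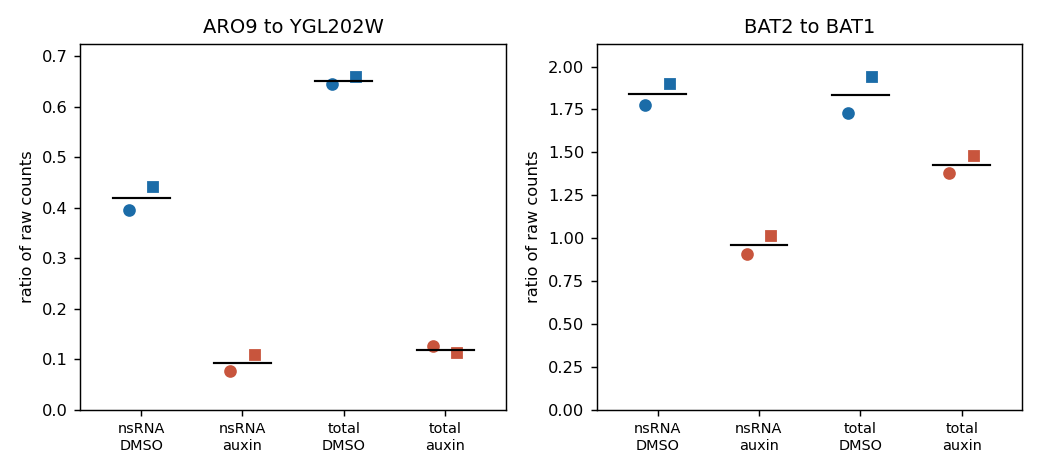
Ratio of raw counts of ARO9 to YGL202W (left) and of BAT2 to BAT1 (right) in each library (y axis, from 0), by RNA kind and treatment (x axis), with DMSO in blue, auxin in red, circles for replicate 1, squares for replicate 2 and a bar for the mean. The ARO9 ratio in total RNA drops from 0.645 and 0.659 to 0.125 and 0.112, and the BAT2 ratio from 1.73 and 1.94 to 1.38 and 1.48.

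The share of a gene's RNA that was newly made was described by the ratio of scaled nsRNA to scaled total RNA in libraries of the same replicate number. The tables were normalised separately, so this ratio has no absolute scale and is read only against the 5433 genes tested in both, the 4 among them. In DMSO cells the ratio was 2.70 and 2.83 for ARO10, 3.18 and 3.61 for ARO9, and 3.27 and 3.79 for ARO80, near the medians of 3.10 and 3.09. For BAT2 it was 0.886 and 0.813, below which lay 7.03% and 6.26% of genes. BAT2 thus had much total RNA for the amount being labelled, already before auxin.

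After auxin, BAT2 had a ratio of 0.0767 and 0.0886, with 5.87% and 5.91% of genes below it, against medians of 0.962 and 1.08. ARO10 had 0.679 and 0.552, with 36.5% and 28.1% of genes below it, and ARO9 had 0.274 and 0.521, with 17.2% and 26.4%. Both were below the medians in both replicates. ARO10 was already below the medians with DMSO, with 41.4% and 44.0% of genes below it. ARO80 had 0.792 and 1.44, on either side of the medians.

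A chosen list of 20 other genes, enzymes of the pathway and genes tied to it, gave the setting for the 4. It includes alcohol acetyltransferases, a weak acid transporter and its activator, and is not the full pathway. In nsRNA, 18 of the 18 tested were lower (edgeR adjusted p under 0.05), where 97.6% of all genes were. The median log2 change was -4.07 against -4.08 over all genes, with a range from -4.97 to -2.02. In total RNA, 15 of the 19 tested fell and none rose, where 90.3% of all genes fell and 1.44% rose. The median there was -1.33 against -2.34 over all genes. With TMM scaling, 14 of 18 in total RNA and 9 of 18 in nsRNA lay above 0. That scaling puts the median of all genes near 0, at -0.11 and -0.03, so 9 of 18 is near the background. The list medians were 0.80 in total RNA and -0.04 in nsRNA. The downward direction of the list, like that of all genes, thus rests on the deposited factors.

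The other decarboxylases on the list act mainly on pyruvate. YLR044C, the major pyruvate decarboxylase, had 2219 and 2193 scaled counts in total RNA from DMSO cells and 1895 and 1570 after auxin. Its change was -0.35 (edgeR adjusted p = 0.179). YLR134W, a minor isoform, was at -0.43 (edgeR adjusted p = 0.0898). Both were called lower with the replicate number as a block in the fit (edgeR adjusted p = 3.69e-08 and 0.00755). In nsRNA these were at -4.15 and -2.02, and YLR134W was the least lowered of the list's tested genes in that kind of RNA only. YGR087C, the remaining isoform, had at most 5 raw counts in any library and was not tested.

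Among the enzymes of the last step, ADH1, the main fermentative alcohol dehydrogenase, had 74430 and 94960 raw counts with DMSO and 71922 and 75953 after auxin in total RNA. It was lower by -0.45 on the log2 scale (edgeR adjusted p = 0.0320), a call lost when any 1 of the 4 total RNA libraries was left out, with adjusted p from 0.0751 without auxin replicate 2 to 0.319 without DMSO replicate 2, and in the fit of all 8 libraries (0.0602). SFA1, a bifunctional alcohol and formaldehyde dehydrogenase, fell by 2.12 (edgeR adjusted p = 1.08e-15). ALD6, the cytosolic aldehyde dehydrogenase, fell by 2.37 (edgeR adjusted p = 1.18e-20). Export of weak acids made by the pathway needs the plasma membrane transporter YPL058C, which fell by 1.33 (edgeR adjusted p = 3.83e-07). YML076C, the zinc cluster activator of the weak acid response, fell by 2.92 (edgeR adjusted p = 8.31e-24), close to ARO80.

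**Figure D4:**
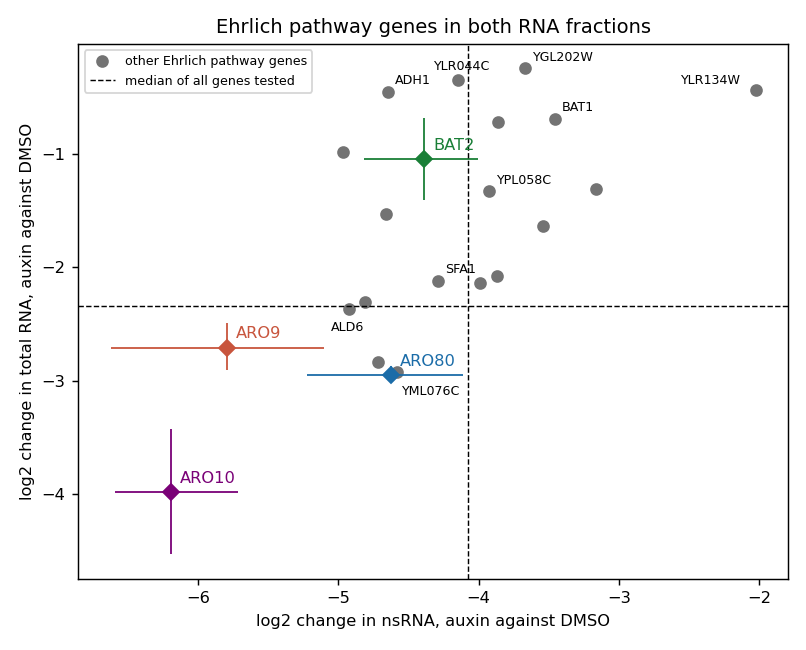
Log2 change of auxin against DMSO in nsRNA (x axis) and in total RNA (y axis) for the 4 genes (coloured diamonds, lines spanning the 4 pairs of libraries) and for the other Ehrlich pathway genes tested in both (grey circles), with dashed lines at the medians of all genes, -4.08 and -2.34. ARO10 lies below and to the left of the other plotted genes, and BAT2 lies at -4.39 and -1.05 among enzymes that kept more total RNA than the median gene, on the deposited scaling.

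Of the 11 genes for making the aromatic amino acids, 11 were lower in nsRNA, where 97.6% of all genes were, with a median of -3.55 against -4.08 over all genes. In total RNA 7 of the 11 fell, where 90.3% of all genes did, with a median of -1.17 against -2.34. YDR127W, the pentafunctional arom protein, was at -0.11 in total RNA (edgeR adjusted p = 0.662) with 7672 and 9050 scaled counts with DMSO and 7017 and 8495 after auxin. YGL148W, chorismate synthase, was at -0.35 (edgeR adjusted p = 0.153), and YGL026C, tryptophan synthase, at -0.28 (edgeR adjusted p = 0.285). YDR127W, YGL148W and YGL026C were called lower with the replicate number as a block in the fit (edgeR adjusted p = 0.0379, 4.65e-11 and 6.64e-06). With TMM scaling, 10 of the 11 lay above 0 in nsRNA and 7 of 11 in total RNA. Their medians were then 0.48 and 1.05, against -0.03 and -0.11 over all genes.

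The enzymes that make the branched-chain amino acids, the substrates of BAT2, were the least lowered list in total RNA by median. All 8 were lower in nsRNA, where 97.6% of all genes were (median -3.71, against -4.08 over all genes). In total RNA 5 of 8 fell and 1 rose, where 90.3% of all genes fell and 1.44% rose (median -0.63, against -2.34). ILV2, acetolactate synthase, was lower by -0.72 (edgeR adjusted p = 0.00308), a call lost without DMSO replicate 2 (0.147) or auxin replicate 1 (0.162). YGL009C, isopropylmalate isomerase, was higher by 0.52 (edgeR adjusted p = 0.0318), a call lost without any 1 of the 4 libraries (adjusted p from 0.0898 without DMSO replicate 2 to 0.405 without auxin replicate 2). YJR016C, dihydroxyacid dehydratase, was at 0.30 (edgeR adjusted p = 0.219), and was called higher with the replicate number as a block (edgeR adjusted p = 2.60e-08). The count of 5 became 2 without DMSO replicate 2 and also 2 without auxin replicate 1. With TMM scaling, all 8 lay above 0 in total RNA and 6 of 8 in nsRNA. Their medians were then 1.60 and 0.31, against -0.11 and -0.03 over all genes.

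Amino acid permeases bring the substrates into the cell. The list of 8 used here also holds YBR132C, annotated as a regulator of polyamine and carnitine transport. All 8 fell in both kinds of RNA, which is near the background of 97.6% of all genes in nsRNA and 90.3% in total RNA. Their medians were -4.33 in nsRNA and -3.18 in total RNA, against -4.08 and -2.34 over all genes. TAT1, which takes up tyrosine and branched-chain amino acids, had 1919 and 2169 scaled counts in total RNA from DMSO cells and 210 and 261 after auxin. It fell by 3.12 (edgeR adjusted p = 7.72e-28). BAP2 and BAP3, permeases of branched-chain amino acids, were lower at -3.24 and -3.66 (edgeR adjusted p = 5.21e-30 and 2.86e-35). In total RNA 7 of the 8 were called lower with TMM scaling, where 2069 of all 5430 genes tested were. YKR039W, the general amino acid permease, lay above 0 there.

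Of the 17 other targets of nitrogen catabolite repression, 17 were lower in nsRNA (median -4.16), and 14 of the 14 tested fell in total RNA (median -2.16). Over all genes 97.6% and 90.3% were lower, with medians of -4.08 and -2.34. YCL064C, the catabolic serine and threonine deaminase, fell by 3.49 in total RNA (edgeR adjusted p = 7.33e-33) and was at -5.41 in nsRNA. YPR035W, glutamine synthetase, fell by 1.57 (edgeR adjusted p = 1.72e-09). GDH2, the glutamate dehydrogenase that breaks glutamate down, fell by 0.98 (edgeR adjusted p = 0.000162), a call lost without auxin replicate 1 (0.0611). With TMM scaling, 5 of 14 lay above 0 in nsRNA and 6 of 13 in total RNA. The list medians were then -0.27 and -0.12, against -0.03 and -0.11 over all genes.

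GATA factors and URE2 regulate these targets. Of this list, 4 of 4 tested were lower in nsRNA, where 97.6% of all genes were, with a median of -3.31 that is less low than the -4.08 of all genes. In total RNA 3 of 3 fell, where 90.3% of all genes did, with a median of -2.79 against -2.34. YER040W, an activator of nitrogen catabolite repression genes, fell by 2.65 in total RNA (edgeR adjusted p = 1.02e-16). GZF3 fell by 2.79 (edgeR adjusted p = 1.36e-15), and URE2, which restrains the activator, fell by 3.24 (edgeR adjusted p = 1.46e-30). GAT1 had 18 and 47 raw nsRNA counts with DMSO and 9 and 6 after auxin, and at most 3 in total RNA, where it was not tested. DAL80 had at most 2 raw counts in any library. In nsRNA with TMM scaling, 3 of the 4 lay above 0, with a median of 0.71 against -0.03 over all genes.

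ARO80 was also set beside 14 other zinc cluster activators. All 14 were lower in both kinds of RNA, near the background of 97.6% and 90.3% of all genes, with medians of -4.10 and -2.65 against -4.08 and -2.34 over all genes. GAL4, the activator of the galactose genes, had 194 and 231 raw nsRNA counts with DMSO and 5 and 8 after auxin, a log2 change of -6.05, and 19 and 29 against 3 and 0 in total RNA. PDR1, which drives the drug resistance response, fell by 2.88 in total RNA (edgeR adjusted p = 4.46e-25), ARG81 fell by 2.31 (edgeR adjusted p = 1.84e-18) and YKL015W, the proline utilisation activator, fell by 2.86 (edgeR adjusted p = 5.20e-25). ARO80 at -2.95 was between the list's lowest value of -4.40 and its highest of -1.52. With TMM scaling, 7 of the 14 lay above 0 in nsRNA and 4 of the 14 in total RNA. The list medians were then -0.07 and -0.43, against -0.03 and -0.11 over all genes.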

How the data were processed

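Stranded, ribosomal RNA-depleted libraries were made from 300 ng (nsRNA) or 800 ng (total RNA), with S. pombe cells mixed in before extraction at 3 parts to 1 part of S. cerevisiae, per the labels' protocols. The build was sacCer3, with bcl2fastq 2.17.1.14, per the submitters' processing notes. The aligner and counter were not stated in the sources used here. Per the file headers, the authors deposited raw counts for each gene and a normalised signal. That signal equals the raw count over a constant for each library: 0.669, 0.720 (nsRNA, DMSO), 1.44, 1.45 (nsRNA, auxin), 0.881, 0.951 (total, DMSO) and 1.15, 1.04 (total, auxin). How the authors set the factors was not stated in the sources used here, and their link to S. pombe RNA is assumed. The deposited log2 changes and p-values come from the authors' comparisons, per the file headers.

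The test was edgeR 4.0.16 (R 4.3.3), quasi-likelihood, per kind of RNA, over the whole table, with library sizes from the deposited factors, filterByExpr at a minimum count of 10, and p adjusted by Benjamini-Hochberg with a threshold of 0.05. The SE is the absolute log2 change divided by the square root of F. DESeq2 1.42.0 was an alternative. Fits were tested on simulated data in which a small set of genes was lowered and the rest left unchanged. That setting does not cover a fall of most genes, as seen here. Named genes were the 4, the 3 most abundant of each list, 9 genes set by name, and the 3 nearest profiles of each. YKR039W, YBR132C, DAL80, YGR087C, THI3 and the chromosomal neighbours were named after their values were seen. The 4 genes and the 7 lists were chosen with earlier results of these data known. Of 83 list genes, 47 have no name in the deposited tables and are given by identifier. Same-numbered replicates did not deviate together (correlation -0.0561 in nsRNA and 0.0561 in total RNA).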

Additional observations from a re-analysis of the deposited data

How the results depend on the processing

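Over the alternatives run, 78 of the values of the 4 genes stayed within the replicate spread or on the same side of the threshold, 8 moved and 2 reversed. The moves and reversals came from scaling alone. With TMM and with median-of-ratios scaling the nsRNA changes were -2.17 and -2.16 (ARO10), -1.77 and -1.76 (ARO9), -0.60 and -0.60 (ARO80) and -0.36 and -0.36 (BAT2). Total RNA of BAT2 reversed, at 1.18 and 1.22. With TMM the median of all genes was -0.03 in nsRNA (1598 lower, 1719 higher) and -0.11 in total RNA (2069 lower, 1893 higher), against 5659 and 4946 lower on the deposited scaling. Under median-of-ratios it was -0.02 (1563 lower, 1737 higher) and -0.05 (1974 lower, 2038 higher).

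Of the list counts, 124 stayed within 1.5 times and 30 moved. With either scaling the genes called lower in nsRNA were 8 of 18 tested (other Ehrlich pathway), 0 of 11 (aromatic synthesis) and 1 of 8 (branched-chain synthesis). They were 5 of 8 (permeases), 4 of 14 (nitrogen catabolite repression), 0 of 4 (GATA factors) and 5 of 14 (zinc cluster). Over all genes 1598 of 5816 were called lower with TMM and 1563 of 5833 with median-of-ratios. In total RNA with TMM they were 2 of 18, 2 of 11, 0 of 8, 2 of 13, 1 of 3 and 8 of 14 for the same lists without the permeases. Over all genes 2069 of 5430 were. Median-of-ratios gave 7 for the zinc cluster list and the same counts for the others, with 19 tested for the Ehrlich list and 14 for the nitrogen list. Over all genes 1974 of 5489 were called lower there. At a mean count of at least 50 the nitrogen list gave 10 and 9, since only that many of its genes reached the filter, and all of those were still called lower. Leaving out 1 library gave 2 to 4 for branched-chain synthesis in total RNA.

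Leaving out 1 library, ARO10 in total RNA ranged from -4.37 to -3.66, ARO9 from -2.83 to -2.57, ARO80 from -3.00 to -2.90 and BAT2 from -1.24 to -0.85 (edgeR adjusted p at most 0.0470). The lone library is then assumed to vary like the other groups. With the replicate number as a block, ARO10 in total RNA was at -3.98, ARO9 at -2.70, ARO80 at -2.95 and BAT2 at -1.05, with no call of the 4 changed. In total RNA the block raised the genes called lower to 18 (other Ehrlich pathway, with YGL202W, YLR044C and YLR134W added) and 10 (aromatic synthesis, with YDR127W, YGL148W and YGL026C added), and YJR016C was called higher; no other list gene changed its call. Over all genes 5176 were then lower and 123 higher. Whether the numbers pair the libraries was not settled. The correlation of replicate differences over genes cannot see a shift shared by all genes. In total RNA, replicate 2 lay above replicate 1 in both treatments for ARO10, ARO9 and BAT2, but not for ARO80 after auxin. Depth limits ARO10 and ARO9 in nsRNA after auxin, at 21 to 69 raw counts.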

Other observations

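The genes beside ARO10 and ARO9 were also low in nsRNA after auxin. They were looked at after the values of the 4 genes were seen, and are given as values. Left of ARO10, with 700 bases between them, lies YDR379C-A, which helps assemble succinate dehydrogenase. It had 78 and 112 raw nsRNA counts with DMSO and 2 and 5 after auxin, a log2 change of -5.75, and 0.862% of genes tested were lower. YRA1, an mRNA export factor 432 bases to the right, had 5958 and 7395 against 234 and 339, a change of -5.59 with 1.31% of genes lower. In total RNA YDR379C-A was at -3.30 and YRA1 at -2.58.

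Beside ARO9, YHR136C was at -5.13 in nsRNA and -3.53 in total RNA, and YHR138C at -5.26 and -3.05, with 3.98% and 2.91% of genes lower in nsRNA. Beside ARO80, YDR420W was at -4.15 in nsRNA and -3.38 in total RNA, and YDR422C at -3.24 and -2.01. Left of BAT2, YJR147W was at -4.02 in nsRNA and -1.40 in total RNA. Right of BAT2, YJR149W had 219 and 238 raw nsRNA counts with DMSO and 129 and 178 after auxin, a change of -1.63. In total RNA YJR149W was at 0.27, with 115 and 165 against 194 and 207 raw counts. Whether position along the chromosome bears on these values was not tested.

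Profiles over the 8 libraries were compared by Euclidean distance between centred log2 scaled counts (pseudocount 0.5), among the 4632 genes whose mean scaled count reached 50 in each kind of RNA. The nearest to ARO10 were YGR243W (0.754), a subunit of the mitochondrial pyruvate carrier, YPC1 (0.865), an alkaline ceramidase, and YER007W (0.870), which helps form tubulin dimers. The nearest to ARO9 were SWE1 (0.737), a kinase that delays mitosis, MSS1 (0.754), which modifies mitochondrial tRNA, and YER007W (0.786). ARO80 was nearest to SUV3 (0.211), FAA2 (0.241) and YPL233W (0.249), and BAT2 to YGL012W (0.191), the last enzyme of ergosterol synthesis, YML022W (0.241) and YPT7 (0.276). Among themselves, ARO10 and ARO9 were 1.49 apart, ARO80 and ARO9 1.67 and ARO10 and ARO80 2.09, while BAT2 was 3.72 to 4.72 from the other 3. None of the 4 was thus among the 3 nearest of another.

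The annotation in the deposited tables gives 11 genes the Ehrlich pathway by name. ARO10 is the only one of the 4 among them, and THI3, a regulator of thiamine genes that was not in the list used here, was at -4.07 in nsRNA and fell by 2.09 in total RNA (edgeR adjusted p = 2.54e-15).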
